A study of Homo sapiens with 15 samples.

Results

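The 7 genes described here encode surface antigens by which B-cell precursor leukaemia is recognised, typed or targeted, namely CD22, MME, CD24, CD38, CD72, MS4A1 and TNFRSF13C. They were chosen by name, with earlier results of these data known. Their estimated reads were summed per gene, among 33367 genes, in 15 libraries of the human cell line Reh. This B-lymphoblastic leukaemia line expresses an ETV6::RUNX1 fusion, while its other ETV6 allele is deleted. The libraries form 5 groups of 3, in which transduced Reh populations had all received 500 ng/ml doxycycline. In the first experiment the drug induced V5-tagged wild-type ETV6 (ETV6_WT), V5-tagged ETV6 with the R399C substitution (ETV6_R399C) or, as the control, V5-tagged tagBFP, a blue fluorescent protein, for 48 h. In the second, it induced dCas9-KRAB, an inactive Cas9 fused to a repressor domain, for 72 h in cells that carried a guide against the ERG promoter (sgERG) or a non-targeting guide (sgCtrl) and had been sorted for the guide vector's fluorescence. The cells are 1 cell line, so differences between patients' leukaemias are outside these data, and the measurements are of messenger RNA, not of protein at the surface.

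ETV6 is a transcriptional repressor and ERG is mostly an activator. Both belong to the ETS family, whose members bind DNA around a GGAA core, and R399C lies in the DNA-binding domain of ETV6. The surface antigens have unlike functions. CD22, a lectin that binds sialic acid, and CD72, a C-type lectin-like protein, carry inhibitory tyrosine motifs and dampen signals of the B-cell receptor. MME, known as CD10 or neprilysin, is a zinc peptidase that cleaves peptides outside the cell, and CD38 is an enzyme that consumes NAD. CD24 is a small, heavily glycosylated protein held by a lipid anchor. MS4A1 encodes CD20, a membrane-spanning protein that usually appears later in B-cell maturation, and TNFRSF13C encodes the receptor for the survival factor BAFF. Antibodies or antibody conjugates against CD22, CD20 and CD38 are in clinical use.

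Libraries held 22040338 to 52481351 reads. The replicates of sgERG agreed less well than those of other groups: a chi-square per degree of freedom over genes was 14.68 and 12.92 between the third sgERG library and its partners, against 2.89 to 6.94 for all other pairs of replicates. ETV6 averaged 485.9 ± 18.1 CPM, or reads per library normalised to a fixed total, with ETV6_WT, 373.3 ± 14.7 CPM with ETV6_R399C and 5.86 ± 0.327 CPM with tagBFP (SD, n = 3 each). ERG averaged 105.1 ± 4.14 CPM with sgERG and 524.7 ± 6.35 CPM with sgCtrl (SD, n = 3 each), so both interventions showed in the RNA. Each target also moved in the other experiment. ETV6 averaged 6.56 ± 0.513 CPM with sgERG and 13.2 ± 1.25 CPM with sgCtrl (SD, n = 3 each; log2 -1.0, edgeR adjusted p = 7e-05). No ETV6 was induced in these cells and the allele outside the fusion is deleted, so these reads need not be of full-length ETV6. ERG was higher with ETV6_WT than with tagBFP (log2 0.12, edgeR adjusted p = 0.0032), but did not pass with ETV6_R399C (edgeR adjusted p = 0.98). CPM values were scaled between libraries, and only reads assigned to a named gene enter their total. Of 8 markers of B-cell precursors, 7 were above 1 CPM in every group and VPREB1 was at 0 in every group. Of the 5 T-cell markers, CD3D and CD2 were at 0 in every group and the summed level did not exceed 1.35 CPM, and the 4 erythroid markers summed to at most 0.12 CPM with HBB, HBG1 and ALAS2 at 0.

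Of the 6 surface antigen genes other than MS4A1, 5 rose with wild-type ETV6 and none fell, by edgeR's quasi-likelihood test at an adjusted p of 0.05 over all genes. MS4A1 passed the filter on low counts through its ETV6_WT libraries alone, so its own call there, also higher, had to follow and is not counted. Of all 14242 genes tested, 36.5% passed in either direction, 17.6% higher and 18.9% lower. With ETV6_R399C against the same tagBFP libraries 6 of the 7 rose and none fell, where 40.9% of all genes passed, 18.8% higher and 22.1% lower. MS4A1 was among the 6, at 8, 6 and 8 reads with ETV6_R399C and 3, 3 and 4 with tagBFP. Its call was lost without some single libraries and with an offset for average transcript length, and DESeq2 called 5 genes higher. In both comparisons the gene that did not pass was TNFRSF13C. Of the 6 genes other than MS4A1 with ETV6_WT, and of the 7 with ETV6_R399C, none was lower at an unadjusted p of 0.05 in edgeR. By DESeq2 none was lower either, the count being 0 in both comparisons by both tools. Under ERG repression 6 of the 7 were tested, and they split: CD24 and CD72 rose, CD22 and MME fell, and CD38 and TNFRSF13C did not pass. The background of that comparison was lower, with 14.6% of 13464 genes passing, 6.89% higher and 7.74% lower. The labels do not say that replicates came from separate cultures, so p-values measure only the spread between these libraries.

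**Figure D1:**
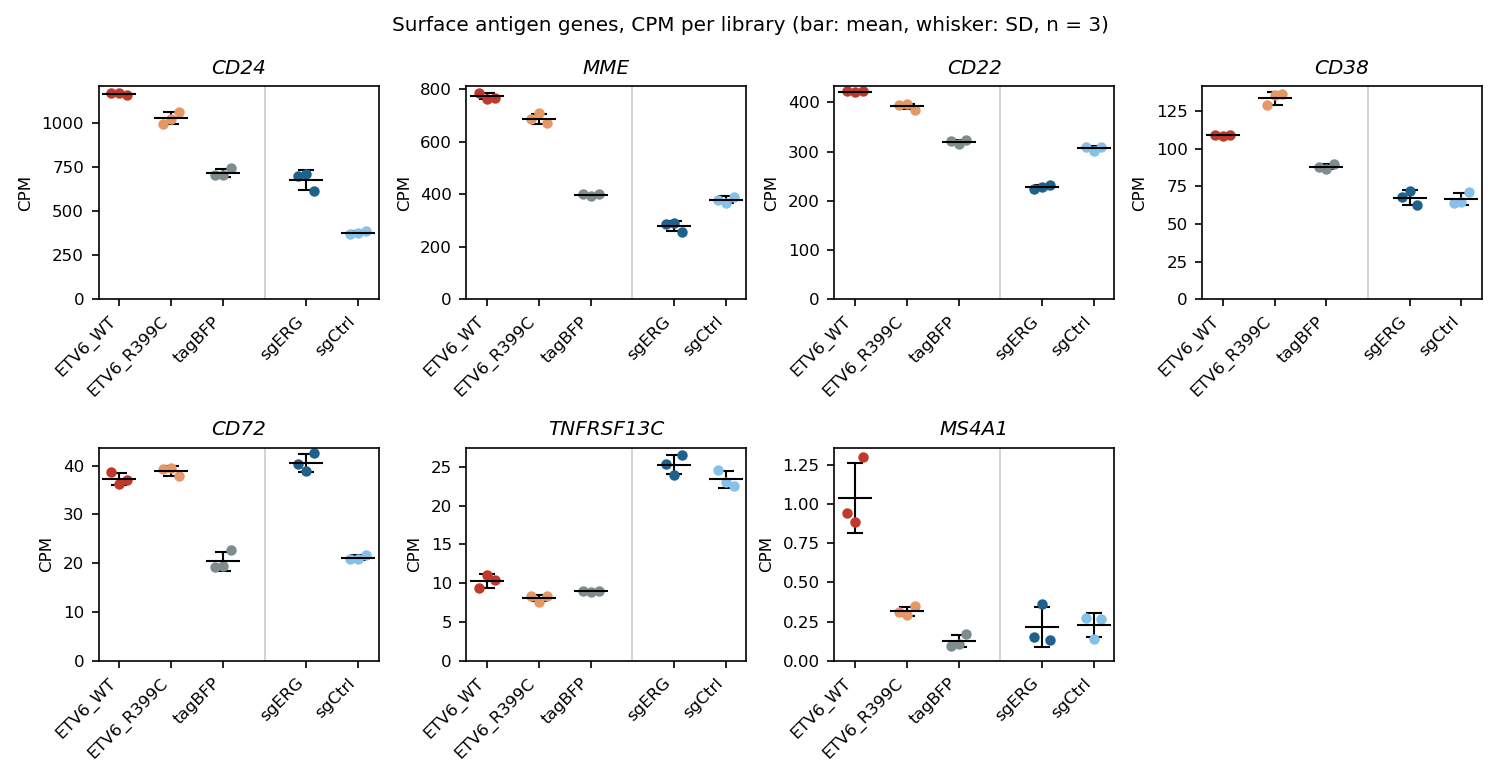
CPM of the 7 surface antigen genes in each library (points), with the mean (horizontal bar) and SD (whisker, n = 3) per group, on linear axes that start at 0 and differ between panels. The grey line parts the 2 experiments. CD22 and MME sit higher with either ETV6 form than with tagBFP and lower with sgERG than with sgCtrl, whereas CD24 and CD72 sit higher in both experiments.

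CD22 and MME moved in opposite directions in the 2 experiments. CD22 (chromosome 19, 35319261 to 35347355, forward strand, hg38) had 422.2, 420.5 and 422.9 CPM with ETV6_WT, 394.6, 395.5 and 385.1 CPM with ETV6_R399C, and 320.6, 316.1 and 323.1 CPM with tagBFP. The 3 groups did not overlap and ETV6_WT was the highest. The rise over tagBFP was 0.40 ± 0.02 (SE) on the log2 scale with ETV6_WT (edgeR adjusted p = 1.2e-07) and 0.29 ± 0.02 with ETV6_R399C (edgeR adjusted p = 2.2e-06). With sgERG it had 223.5, 228.5 and 231.8 CPM, against 310.0, 301.9 and 308.5 CPM with sgCtrl. Every sgERG library lay below every sgCtrl library, and the level was 74.3% of that with sgCtrl (log2 -0.43 ± 0.04 SE, edgeR adjusted p = 2.3e-05).

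MME (chromosome 3, 155024124 to 155183729, forward strand) showed the larger change with ETV6. It had 785.4, 764.2 and 767.0 CPM with ETV6_WT, 685.5, 707.7 and 669.7 CPM with ETV6_R399C, and 399.6, 393.1 and 400.3 CPM with tagBFP. The peptidase's RNA was thus 1.94-fold higher with ETV6_WT than with tagBFP (log2 0.96 ± 0.03 SE, edgeR adjusted p = 5.6e-10) and 1.73-fold higher with ETV6_R399C (log2 0.79 ± 0.03 SE, edgeR adjusted p = 3.4e-09), with no overlap between groups. Of all genes tested, 2.42% had a higher log2 fold change than MME with ETV6_WT. With sgERG it had 287.8, 290.3 and 257.2 CPM, against 379.4, 366.2 and 391.0 CPM with sgCtrl. The third sgERG library was the lowest. The level was 73.5% of that with sgCtrl (log2 -0.44 ± 0.05 SE, edgeR adjusted p = 0.00024), and without that library the log2 fold change was -0.39 (edgeR adjusted p = 3.5e-05).

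CD24 and CD72 were higher in both experiments. CD24 (chromosome 6, 106969831 to 106975627, reverse strand) had 1170.4, 1170.3 and 1161.5 CPM with ETV6_WT, 997.8, 1025.4 and 1065.4 CPM with ETV6_R399C, and 704.4, 705.5 and 746.6 CPM with tagBFP. The groups followed that order without overlap, and the rise over tagBFP was 0.70 ± 0.03 (SE) on the log2 scale with ETV6_WT (edgeR adjusted p = 1.6e-08) and 0.52 ± 0.03 with ETV6_R399C (edgeR adjusted p = 2.9e-07). With sgERG it had 703.5, 713.4 and 612.8 CPM, against 370.6, 376.5 and 389.9 CPM with sgCtrl, a rise of 0.84 ± 0.06 SE on the log2 scale (edgeR adjusted p = 4.9e-06). Of all genes tested, 1.89% had a higher log2 fold change with sgERG. The third sgERG library was again the lowest of its group, and without it the rise was 0.90 (edgeR adjusted p = 4.95e-08). The tables hold 1 of the 8 transcripts that GENCODE 29 lists for CD24, and the gene has processed pseudogenes, so its reads may be incomplete or shared with those copies.

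CD72 (chromosome 9, 35609533 to 35646810, reverse strand) had 38.6, 36.2 and 37.1 CPM with ETV6_WT, 39.3, 39.6 and 37.8 CPM with ETV6_R399C, and 19.2, 19.4 and 22.7 CPM with tagBFP. Both ETV6 groups stood above tagBFP in every library and overlapped each other. The rise was 0.87 ± 0.06 (SE) on the log2 scale with ETV6_WT (edgeR adjusted p = 7.7e-07) and 0.93 ± 0.06 with ETV6_R399C (edgeR adjusted p = 5.8e-07). With sgERG it had 40.4, 38.8 and 42.5 CPM, against 20.8, 20.9 and 21.7 CPM with sgCtrl, a 1.92-fold rise (log2 0.94 ± 0.06 SE, edgeR adjusted p = 2.4e-06). CD72 overlaps TESK1 on the other strand, and since the strand setting of the quantification is not given in the sources used here, its reads are uncertain to that extent. TESK1, a protein kinase gene, had log2 fold changes of 0.17 with ETV6_WT (edgeR adjusted p = 0.067), 0.30 with ETV6_R399C (edgeR adjusted p = 0.0037) and 0.12 with sgERG (edgeR adjusted p = 0.23), all smaller than those of CD72.

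**Figure D2:**
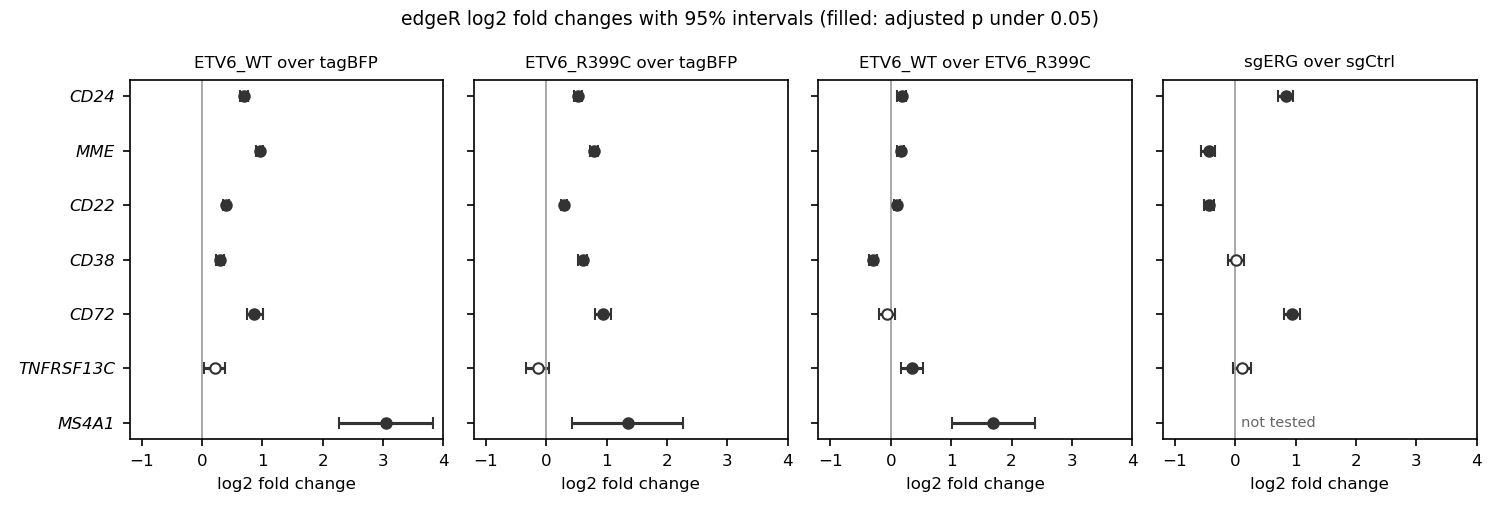
Log2 fold changes from edgeR with 95% intervals for the 7 genes in the 4 comparisons. Filled points passed an adjusted p of 0.05 and open points did not. With sgERG over sgCtrl, CD24 and CD72 lie right of 0, CD22 and MME left of 0, and MS4A1 was not tested. In the panels with ETV6_WT on top, MS4A1 is shown as a description, since those libraries alone took it past the filter.

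The difference between the 2 responses was tested in 1 edgeR fit of all 15 libraries, as the log2 fold change of an ETV6 form over tagBFP minus that of sgERG over sgCtrl. These comparisons share no library, but the experiments also differ in vector, sorting and hours of induction, which cannot be told apart from the intervention. The test was added after the values had been seen. For ETV6_WT it passed for 30.0% of 14969 genes, and for ETV6_R399C for 33.6%. With ETV6_WT the difference was 0.83 for CD22 (edgeR adjusted p = 9.5e-11), 1.40 for MME (edgeR adjusted p = 4.2e-11) and 0.29 for CD38 (edgeR adjusted p = 0.0051). With an offset for average transcript length the CD38 difference was 0.15 and did not pass (edgeR adjusted p = 0.511). For CD72 it was -0.07, with a 95% interval of -0.25 to 0.11 (edgeR adjusted p = 0.57). For CD24 it was -0.14, with an interval of -0.28 to 0.00 (edgeR adjusted p = 0.13), but -0.21 without the third sgERG library (edgeR adjusted p = 0.0024). With ETV6_R399C the CD24 difference was -0.30 (edgeR adjusted p = 0.0022), its rise being smaller than that with sgERG. CD72 then differed by 0.01, with an interval of -0.17 to 0.19 (edgeR adjusted p = 0.98).

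**Figure D3:**
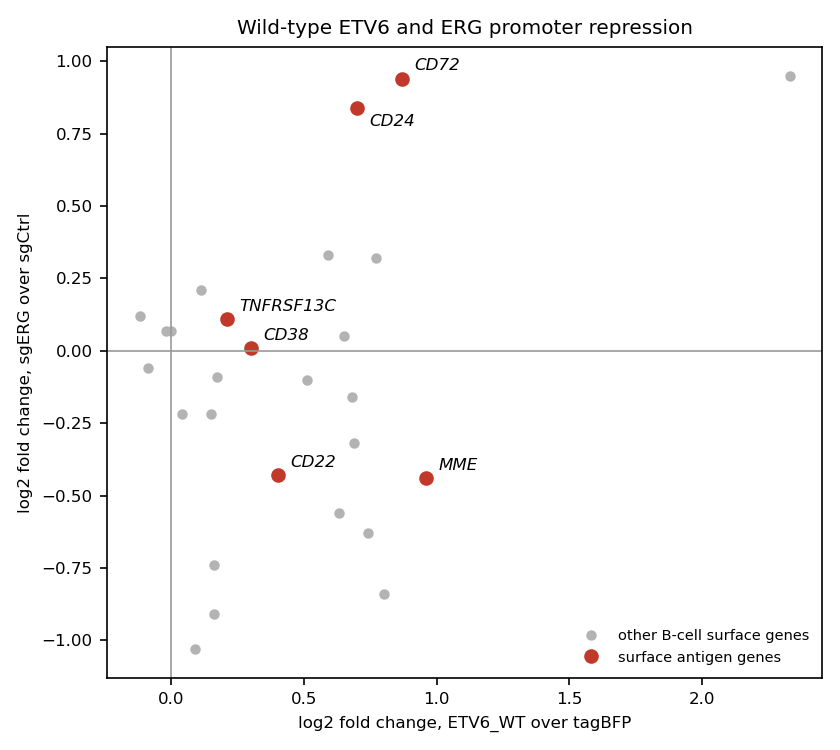
Log2 fold change of ETV6_WT over tagBFP (horizontal axis) and of sgERG over sgCtrl (vertical axis) for the 6 surface antigen genes tested in both experiments (red) and for other B-cell surface genes tested in both (grey). CD24 and CD72 lie in the upper right and CD22 and MME in the lower right.

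The sequences before the start sites of CD22, MME, CD24 and CD72 are shown because these 4 genes passed in both experiments. RefSeq windows on GRCh38.p14 ran from 250 bases before to 50 after a start site, and 5 of the 7 genes, these and CD38, matched one by symbol. They are printed 5′ to 3′ on the gene's strand, and capitals mark GGAA or its reverse complement TTCC. The windows are chr19:35328937-35329236 (forward) for CD22, chr3:155079422-155079721 (forward) for MME, chr6:106975416-106975715 (reverse) for CD24 and chr9:35618364-35618663 (reverse) for CD72.
CD22: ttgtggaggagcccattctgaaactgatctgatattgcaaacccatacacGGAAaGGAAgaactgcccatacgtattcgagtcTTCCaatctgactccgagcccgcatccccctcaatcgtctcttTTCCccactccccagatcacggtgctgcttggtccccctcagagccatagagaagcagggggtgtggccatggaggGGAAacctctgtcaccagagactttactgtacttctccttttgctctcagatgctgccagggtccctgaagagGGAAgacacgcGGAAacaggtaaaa
MME: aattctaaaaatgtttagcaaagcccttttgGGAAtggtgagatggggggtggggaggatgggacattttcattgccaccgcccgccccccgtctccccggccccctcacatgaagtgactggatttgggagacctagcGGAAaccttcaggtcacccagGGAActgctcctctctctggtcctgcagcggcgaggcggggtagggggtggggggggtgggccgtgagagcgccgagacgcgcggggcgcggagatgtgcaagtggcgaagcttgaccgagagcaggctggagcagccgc
CD24: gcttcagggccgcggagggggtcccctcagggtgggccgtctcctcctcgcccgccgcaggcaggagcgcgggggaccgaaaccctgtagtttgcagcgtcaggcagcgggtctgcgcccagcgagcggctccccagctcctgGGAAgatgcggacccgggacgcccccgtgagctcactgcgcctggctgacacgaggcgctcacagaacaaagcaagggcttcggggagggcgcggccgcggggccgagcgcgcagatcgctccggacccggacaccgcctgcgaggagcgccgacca
CD72: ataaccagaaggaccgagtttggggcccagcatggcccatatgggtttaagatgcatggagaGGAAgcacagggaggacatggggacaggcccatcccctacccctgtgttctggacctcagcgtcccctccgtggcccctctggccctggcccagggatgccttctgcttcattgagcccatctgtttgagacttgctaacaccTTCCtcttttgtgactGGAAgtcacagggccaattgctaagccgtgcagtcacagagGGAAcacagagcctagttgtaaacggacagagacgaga

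The CD22 window held 7 matches of GGAA over both strands, 5 of them forward, the MME window 3, the CD24 window 1 and the CD72 window 4. The CD38 window, not printed, held 3. Among all 35116 RefSeq windows of this length, 95.5% held at least 1 match, with a median of 3 and a range from 1 to 6 between the lowest and highest deciles, so only the CD22 window lay above that range. Neither the longer ETS motif CCGGAAGT nor the tandem GGAAGGAA was present in any of the 5 windows, on either strand. They occurred in 4.1% and 3.7% of all windows. The start site of the CD22 window is that of the transcript with the most CD22 reads, and those of MME and CD72 lie 25 and 14 bases from theirs. The MME window is 1 of 4 for that gene. The CD24 window, 1 of 3, has its start site 710 bases from the start of the transcript in the tables, so it may not be the promoter in use. A match is a run of letters and no measurement of binding.

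CD38 (chromosome 4, 15778275 to 15853230, forward strand) was the 1 gene of the 7 whose level passed as higher with the R399C form than with wild-type ETV6. It had 109.1, 108.2 and 109.1 CPM with ETV6_WT, 128.7, 135.8 and 136.4 CPM with ETV6_R399C, and 88.0, 86.7 and 89.8 CPM with tagBFP. No library of one group overlapped another group. The rise over tagBFP was 0.30 ± 0.03 (SE) on the log2 scale with ETV6_WT (edgeR adjusted p = 1.6e-05) and 0.60 ± 0.03 with ETV6_R399C (edgeR adjusted p = 8e-08). With sgERG it had 68.0, 71.9 and 62.3 CPM, against 63.9, 64.9 and 71.2 CPM with sgCtrl. These groups overlapped, and the log2 fold change was 0.01 with a 95% interval of -0.12 to 0.15 (edgeR adjusted p = 0.9). In TPM, which divides by transcript length, CD38 ranged from 39.5 to 51.8 with ETV6_WT and from 38.9 to 42.2 with tagBFP, and so overlapped. With an offset for average transcript length the ETV6_WT change was 0.22 and did not pass (edgeR adjusted p = 0.124).

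MS4A1 (chromosome 11, 60455752 to 60470760, forward strand) was close to the limit of detection. It had 20, 23 and 29 reads with ETV6_WT, 8, 6 and 8 with ETV6_R399C, and 3, 3 and 4 with tagBFP. All ETV6_WT libraries stood above all others of that experiment, at a mean of 1.04 ± 0.223 CPM (SD, n = 3) for the CD20 message. Since these libraries alone took the gene past the filter, no test of ETV6_WT against the other groups is given for it. With ETV6_R399C the log2 fold change over tagBFP was 1.35, with a 95% interval of 0.43 to 2.26 (edgeR adjusted p = 0.024). That call was lost without the first or the third ETV6_R399C library or the first or second tagBFP library (edgeR adjusted p = 0.0509, 0.0634, 0.0903 and 0.0651). It had 5, 12 and 4 reads with sgERG, against 12, 5 and 13 with sgCtrl, which was too few for a test.

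TNFRSF13C (chromosome 22, 41922023 to 41926818, reverse strand) did not pass against any control. It had 9.36, 11.1 and 10.4 CPM with ETV6_WT, 8.34, 7.57 and 8.30 CPM with ETV6_R399C, and 8.96, 8.81 and 9.03 CPM with tagBFP. ETV6_WT libraries were above and ETV6_R399C libraries below those with tagBFP, by log2 0.21 (95% interval 0.03 to 0.39, edgeR adjusted p = 0.065) and -0.14 (-0.33 to 0.04, edgeR adjusted p = 0.2). The ETV6_WT call was gained without the first ETV6_WT library (edgeR adjusted p = 0.0359) and in a fit of all 15 libraries (edgeR adjusted p = 0.0422). With sgERG the BAFF receptor had 25.4, 24.0 and 26.5 CPM, against 24.6, 23.0 and 22.5 CPM with sgCtrl, a log2 fold change of 0.11 with an interval of -0.03 to 0.26 (edgeR adjusted p = 0.28). The 2 controls of the experiments themselves stood at 8.93 ± 0.114 CPM with tagBFP and 23.4 ± 1.10 CPM with sgCtrl (SD, n = 3 each), a difference that no test here addresses.

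Between the 2 ETV6 forms, 4 of the 6 genes other than MS4A1 were higher with ETV6_WT and 1 was lower. Of all genes tested, 21.4% passed, 12.1% higher and 9.29% lower. Differences were small for the abundant genes, with log2 fold changes of ETV6_WT over ETV6_R399C of 0.11 ± 0.02 (SE) for CD22 (edgeR adjusted p = 0.0064), 0.17 ± 0.03 for MME (edgeR adjusted p = 0.001) and 0.18 ± 0.03 for CD24 (edgeR adjusted p = 0.0018). The difference was 0.35 ± 0.08 for TNFRSF13C (edgeR adjusted p = 0.011), a call lost with DESeq2 (adjusted p = 0.0515) and with an offset for average transcript length (edgeR adjusted p = 0.0676). CD38 was lower with ETV6_WT, at -0.30 ± 0.03 (edgeR adjusted p = 5e-05), a call that the same offset ended (-0.28, edgeR adjusted p = 0.0914). CD72 differed by -0.06, with a 95% interval of -0.19 to 0.07 (edgeR adjusted p = 0.52). ETV6 itself was 1.30-fold higher with ETV6_WT than with ETV6_R399C (edgeR adjusted p = 2.5e-05), and the part of that difference in these results was not tested. The CD22 call was lost without the first (edgeR adjusted p = 0.0742) or the second ETV6_WT library (edgeR adjusted p = 0.0704), and that of TNFRSF13C without the second (edgeR adjusted p = 0.0711).

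Levels of the genes can be set beside each other only per transcript length, in TPM. With ETV6_WT the order of mean TPM was CD24 at 628, CD22 at 344, MME at 318, CD38 at 46.9, CD72 at 40.0, TNFRSF13C at 17.5 and MS4A1 at 0.493. CD38 and CD72 overlapped between libraries there, and the other neighbours did not. With sgERG the means were 433.5 TPM for CD24, 175.7 for CD22, 155.0 for MME, 54.8 for CD72, 47.8 for TNFRSF13C, 24.8 for CD38 and 0.134 for MS4A1. With sgCtrl CD24 at 239.4 TPM and CD22 at 233.7 TPM overlapped, as CD24 ranged from 234.7 to 246.3 and CD22 from 225.7 to 241.3. CD24 made up at least 45.8% of the summed TPM of the 7 genes in each library with sgERG, against at most 31.1% with sgCtrl. The sum lay between 1388.8 and 1405.7 TPM with ETV6_WT, between 1307.9 and 1362.5 TPM with ETV6_R399C, and between 879.7 and 888.0 TPM with tagBFP. It was 834.3 to 920.5 TPM with sgERG, against 763.2 to 795.5 with sgCtrl.

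**Figure D4:**
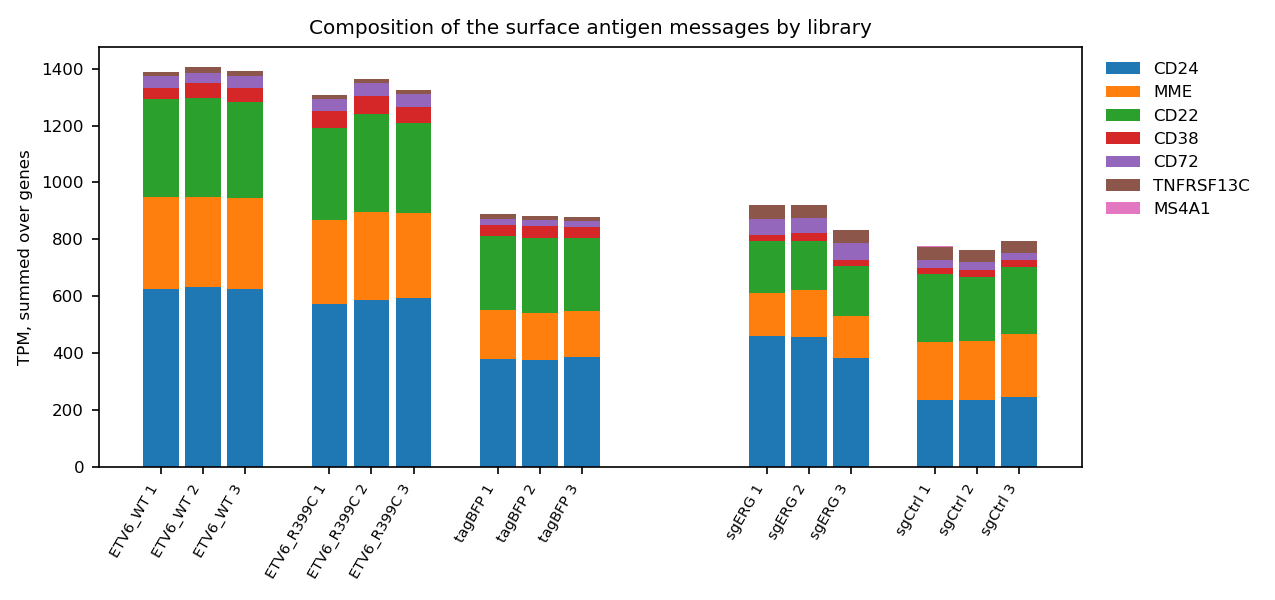
TPM of the 7 genes stacked for each library, so that bar height is their summed TPM and each colour is 1 gene. CD24 forms the largest share in each library with sgERG, at 45.8% or more, and in each library of the ETV6 experiment, at 42.6% or more. MS4A1 is too low to be seen.

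For CD22, CD38 and CD72 the shares of the main transcripts lay further apart between the experiments than within either. CD22-201, a coding transcript, held 57.3% ± 2.88 of the CD22 reads with ETV6_WT, 57.4% ± 2.09 with ETV6_R399C and 59.4% ± 1.16 with tagBFP, and 39.1% ± 2.10 with sgERG against 39.5% ± 1.79 with sgCtrl (SD, n = 3 each). CD22-231, which is annotated as a target of nonsense-mediated decay, held 7.15% ± 3.56 with ETV6_WT, 6.28% ± 2.99 with ETV6_R399C and 3.49% ± 1.21 with tagBFP, and 28.0% ± 3.72 with sgERG against 28.3% ± 0.359 with sgCtrl. The libraries of that transcript ranged from 4.63% to 11.2% with ETV6_WT and from 2.22% to 4.62% with tagBFP, and sgERG and sgCtrl overlapped. MME-203 held 67.1% to 68.8% of the MME reads on average in the 5 groups. CD72-201 held 60.9% with ETV6_WT, 62.4% with ETV6_R399C and 61.4% with tagBFP, and 45.8% with sgERG against 45.5% with sgCtrl. CD38-201 held 83.6% with ETV6_WT, 85.1% with ETV6_R399C and 81.7% with tagBFP, and 92.4% with sgERG against 91.9% with sgCtrl. Shares of transcripts that overlap this much are estimates of the quantifier, and no test was made of them.

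**Figure D5:**
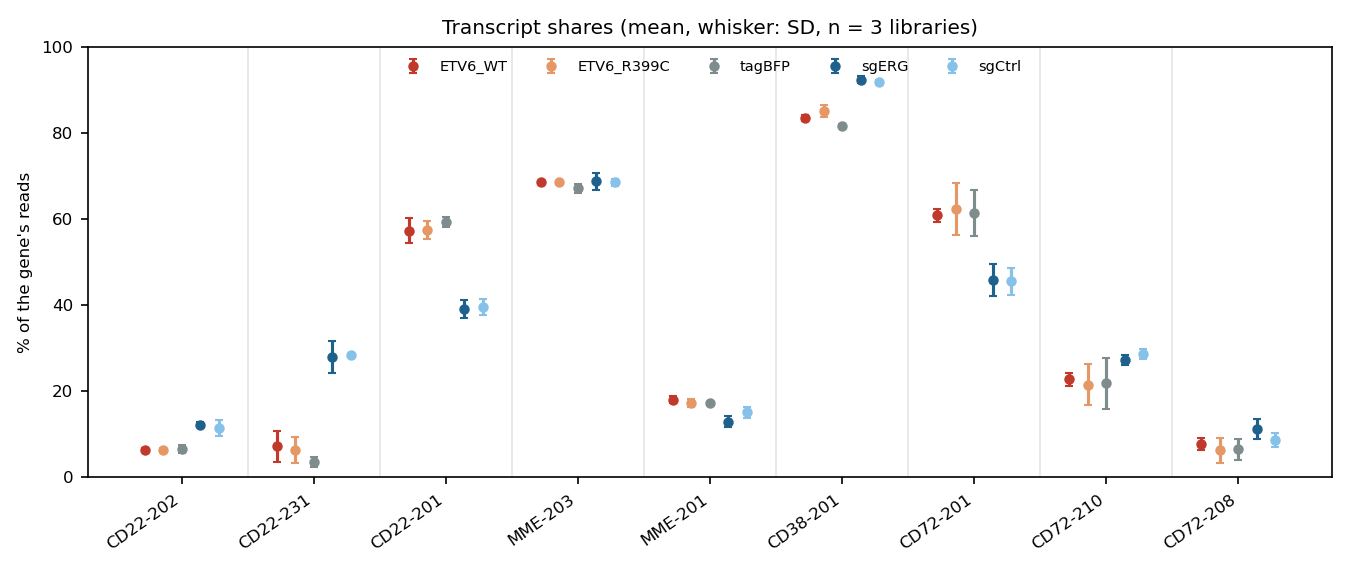
Share of a gene's reads held by each transcript of CD22, MME, CD38 and CD72 that reached 10% in any group, as the mean (point) and SD (whisker) of 3 libraries. Shares of CD22-201, CD22-231, CD38-201 and CD72-201 stand apart between the ETV6 and the CRISPR interference experiments and lie close together within each.

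More of the other B-cell surface genes rose than fell with either ETV6 form. Of 30 other B-leukaemia and B-cell surface genes, also listed with earlier results of these data known, 23 were tested in the ETV6 experiment. With ETV6_WT 12 rose and 2 fell, with a median log2 fold change of 0.51, beside 17.6% higher, 18.9% lower and a median of -0.001 over all genes. With ETV6_R399C 13 rose and 2 fell, with a median of 0.25, beside 18.8% higher, 22.1% lower and a median of -0.001. The 2 comparisons share the tagBFP libraries. CD79B, a signalling chain of the B-cell receptor, rose by log2 0.68 ± 0.03 (SE) with ETV6_WT (edgeR adjusted p = 4.7e-09) and by 0.63 ± 0.03 with ETV6_R399C (edgeR adjusted p = 1.5e-08). CD99, a leukaemia marker of cell adhesion, averaged 98.4 ± 3.03 CPM with ETV6_WT, 66.2 ± 2.23 CPM with ETV6_R399C and 63.5 ± 1.82 CPM with tagBFP (SD, n = 3 each). It rose with ETV6_WT (log2 0.63, edgeR adjusted p = 1.6e-07), and its change with ETV6_R399C did not pass (log2 0.06, edgeR adjusted p = 0.25). The direct difference between the forms was 0.57 (edgeR adjusted p = 1.6e-06).

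Under ERG repression 21 of these surface genes were tested, of which 2 rose and 7 fell, with a median of -0.10, beside 6.89% higher, 7.74% lower and a median of 0.001 over all genes. CD74, the invariant chain of MHC class II, averaged 635.2 ± 26.0 CPM with sgERG and 1192.9 ± 20.2 CPM with sgCtrl (SD, n = 3 each; log2 -0.91, edgeR adjusted p = 2.3e-07). CD200, an immune-inhibitory ligand, fell by 1.03 on the log2 scale (edgeR adjusted p = 2.4e-06) and FLT3, a cytokine receptor kinase, fell by 0.74 (edgeR adjusted p = 1.8e-05). CD99 fell by 0.56 (edgeR adjusted p = 2.4e-05). Like CD22 and MME, CD99, CD74 and FLT3 passed in opposite directions with ETV6_WT and sgERG, and other genes of the list did so too. With ETV6_WT the log2 fold change was 0.16 for CD74 (edgeR adjusted p = 0.0012) and 0.16 for FLT3 (edgeR adjusted p = 0.012). CD200 did not pass with ETV6_WT (edgeR adjusted p = 0.13). CD81, a tetraspanin, rose in each: by 0.59 with ETV6_WT (edgeR adjusted p = 6.2e-08) and by 0.33 with sgERG (edgeR adjusted p = 0.0016).

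Of 13 inhibitory receptors of a role like that of CD22 and CD72, 8 were tested in the ETV6 experiment. With ETV6_WT 1 rose, LAIR1 at log2 0.64 (edgeR adjusted p = 3.9e-06), and 1 fell, CD33 at log2 -1.0 (edgeR adjusted p = 0.0026), where 36.5% of all genes passed. CD33 was at a low level, with means of 1.08 CPM with ETV6_WT and 2.16 CPM with tagBFP. With sgERG 1 of 7 rose, CD33 at log2 0.98 (edgeR adjusted p = 0.0004), and 1 fell, CEACAM1 at log2 -1.55 (edgeR adjusted p = 0.00075), both at a mean under 10 CPM in either group, where 14.6% of all genes passed. Of the 12 kinases, phosphatases and adaptors that act with CD22 and CD72, 4 rose and 2 fell with ETV6_WT, beside 17.6% higher and 18.9% lower over all genes. INPP5D, a lipid phosphatase, averaged 76.5 ± 9.50 CPM with ETV6_WT, 63.1 ± 8.45 CPM with ETV6_R399C and 33.0 ± 3.59 CPM with tagBFP (SD, n = 3 each), a rise of log2 1.21 with ETV6_WT (edgeR adjusted p = 8.3e-06). PTPN6, the phosphatase that CD22 recruits, rose by 0.30 with ETV6_WT (edgeR adjusted p = 0.00074), and its log2 fold change with sgERG was -0.19 (edgeR adjusted p = 0.023). With sgERG 2 of the 12 rose and 3 fell, beside 6.89% higher and 7.74% lower over all genes, among them SYK (log2 0.30, edgeR adjusted p = 0.00025) and DOK3 (log2 -0.44, edgeR adjusted p = 0.00012).

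Of 10 genes of the BAFF axis tested beside TNFRSF13C, 5 rose and 1 fell with ETV6_WT, beside 17.6% higher and 18.9% lower over all genes. With ETV6_R399C 5 rose and 3 fell, beside 18.8% and 22.1%. With sgERG none passed in edgeR or in DESeq2, and 3 were higher at an unadjusted p of 0.05 in edgeR, where 14.6% of all genes passed after adjustment. TNFRSF13B, a second receptor for BAFF, averaged 2.64 ± 0.166 CPM with ETV6_WT, 1.53 ± 0.185 CPM with ETV6_R399C and 0.568 ± 0.184 CPM with tagBFP (SD, n = 3 each), a log2 fold change of 2.19 with ETV6_WT (edgeR adjusted p = 2.8e-05). BIRC3, an inhibitor of cell death downstream of such receptors, rose by 1.68 with ETV6_WT (edgeR adjusted p = 1.1e-05) and by 1.27 with ETV6_R399C (edgeR adjusted p = 9.2e-05). It was at a low level, with means of 3.78 CPM with ETV6_WT, 2.87 CPM with ETV6_R399C and 1.18 CPM with tagBFP. In TPM its ETV6_R399C and tagBFP libraries overlapped. TNFSF13B, which encodes BAFF, was at 0.794 ± 0.164 CPM with ETV6_WT and 0.840 ± 0.125 CPM with tagBFP (SD, n = 3 each) and did not pass (edgeR adjusted p = 0.86).

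Among genes related to the enzymes CD38 and MME, shares that passed with ETV6_WT did not exceed the 36.5% of all genes. Of 10 genes of NAD and nucleotide metabolism, 1 rose and 2 fell with ETV6_WT: NT5E, the surface enzyme CD73, at log2 0.69 (edgeR adjusted p = 0.0004), NAMPT, the salvage enzyme of NAD, at -0.28 (edgeR adjusted p = 0.00017), and SIRT1, an NAD-dependent deacetylase, at -0.16 (edgeR adjusted p = 0.0045). NT5E was also on the list of other surface genes. With sgERG 2 of 8 rose, ADORA2A at log2 1.57 (edgeR adjusted p = 0.0088) and PARP1 at 0.15 (edgeR adjusted p = 0.023), and NT5E fell by 0.32 (edgeR adjusted p = 0.019). Over all genes 6.89% were higher and 7.74% lower with sgERG. ADORA2A was at a low level, 0.992 ± 0.296 CPM with sgERG and 0.329 ± 0.0368 CPM with sgCtrl (SD, n = 3 each), and these groups overlapped in TPM. Of 10 surface peptidases listed beside MME, 4 were tested in the ETV6 experiment, of which ADAM17, a sheddase, rose with ETV6_WT (log2 0.09, edgeR adjusted p = 0.042). Of 5 tested under ERG repression, ANPEP rose by 1.10 (edgeR adjusted p = 0.0011) and ECE1 by 0.26 (edgeR adjusted p = 0.0089), and ADAM17 fell by 0.29 (edgeR adjusted p = 0.0034). In both lists the share that passed with sgERG was above the 14.6% of all genes, with few genes tested. None of the 2 tested members of the MS4A family, MS4A4A and MS4A7, passed in edgeR or DESeq2 in any comparison. At an unadjusted p of 0.05 in edgeR, 1 was higher with ETV6_WT than with ETV6_R399C, MS4A4A (log2 0.56, edgeR adjusted p = 0.1).

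The genes most like each member were sought among 9875 protein-coding genes by the root mean square difference of log2 fold changes over 3 comparisons, ETV6_WT over tagBFP, ETV6_R399C over tagBFP and sgERG over sgCtrl. The nearest to CD22 was SAMD4A, at a difference of 0.0239 and with log2 fold changes of 0.37, 0.27 and -0.44 in that order, and FGF11 was also among the nearest. The nearest to MME was ABLIM1, at 0.0658, with 0.99, 0.90 and -0.45, and TRIM73 was also among the nearest. CD24 had SIK1 at 0.0898, ITGA4 and PALD1, and CD72 had SLC43A2 at 0.0897, BACH2 and LFNG. BACH2, a transcription factor of B cells, had 0.73, 1.08 and 0.88. CD38 was nearest to ZBTB10, at 0.0259, RANBP9 and ATXN7, and TNFRSF13C to ZNF837, GALNT2 and UBXN11. The likeness is a description over 3 values, of which 2 share a control.

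Of the marker lists of other cell types, the plasma-cell list summed to more than the CPM of CD38, CD72, TNFRSF13C or MS4A1 in every group, and the myeloid list to more than that of TNFRSF13C or MS4A1 in every group. These sums run over several genes and are not scaled by transcript length, so they do not rank levels of expression. The 6 myeloid markers summed to 22.4 to 23.5 CPM with ETV6_WT, 18.3 to 19.4 CPM with ETV6_R399C and 18.1 to 19.7 CPM with tagBFP, and to 31.7 to 36.1 CPM with sgERG against 34.0 to 34.6 CPM with sgCtrl. The 4 plasma-cell markers, mostly MZB1, which B cells also express, summed to 176.7 to 184.9 CPM with ETV6_WT, 166.0 to 179.3 CPM with ETV6_R399C and 126.2 to 136.7 CPM with tagBFP, and to 157.4 to 160.7 CPM with sgERG against 209.1 to 220.7 CPM with sgCtrl. The summed B-precursor markers ran from 5844.8 to 5990.8 CPM with ETV6_WT, 5541.9 to 5627.1 CPM with ETV6_R399C and 5000.1 to 5036.7 CPM with tagBFP, and from 7481.9 to 7618.2 CPM with sgERG against 8593.8 to 8694.3 CPM with sgCtrl. The plasma-cell and B-precursor sums were higher with either ETV6 form than with tagBFP and lower with sgERG than with sgCtrl. These were the directions of CD22 and MME. The myeloid sum was higher with ETV6_WT than with tagBFP, and overlapped between ETV6_R399C and tagBFP and between sgERG and sgCtrl. Its members split with ETV6_WT. CSF1R had 15.8 to 17.7 CPM, against 9.28 to 9.99 CPM with tagBFP. ITGAM had 3.75 to 4.09 CPM, against 6.29 to 8.33 CPM. SDC1, a plasma-cell marker, had 5.91 to 7.05 CPM with ETV6_R399C, against 9.28 to 11.7 CPM with tagBFP. SDC1 and, of the B-precursor list, CD79A overlapped between ETV6_WT and tagBFP. Members of the B-precursor list did not all follow its sum with sgERG. RAG1, which cuts DNA in antigen receptor assembly, had 3277.9 to 3501.0 CPM with sgERG, against 4245.2 to 4366.8 CPM with sgCtrl, and DNTT, which adds bases at the joints, 1219.1 to 1231.0 CPM with sgERG, against 1487.6 to 1506.1 CPM with sgCtrl. PAX5, a B-lineage transcription factor, went the other way, at 1140.3 to 1206.2 CPM with sgERG, against 1030.8 to 1067.9 CPM with sgCtrl. EBF1, another such factor, had 602.7 to 635.2 CPM with sgERG, against 582.8 to 604.6 CPM with sgCtrl, and CD79A, a B-cell receptor chain, 370.0 to 417.6 CPM with sgERG, against 358.7 to 374.5 CPM with sgCtrl, both with overlap. The part of these markers in the results was not tested. In bulk RNA, fewer cells that express a gene and less RNA per cell cannot be told apart.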

How the data were processed

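The authors deposited 1 table per library with, per the file headers, an estimated count of reads, TPM, length and effective length for each of 167268 transcripts. Salmon 0.11.3 and hg38 are named per the submitters' processing notes. The library kit keeps strand, per the labels' protocols, and the strand setting used in quantification is not given in the sources used here. Transcripts were assigned to genes by identifier in GENCODE 29, which named 90.3% of them. The rest held 6.67% to 7.55% of a library's reads and were left out. Estimated counts were summed per gene and rounded, and deposited TPM values were summed for levels between genes.

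The test was edgeR 4.0.16 (R 4.3.3) quasi-likelihood with TMM scaling and filterByExpr defaults, and p-values were adjusted by the Benjamini-Hochberg method over every gene tested, at 0.05, in a fit of the 9 ETV6_WT, ETV6_R399C and tagBFP libraries and a fit of the 6 sgERG and sgCtrl libraries. Biological coefficients of variation were 4.95% and 6.24%. The SE of a log2 fold change is the SE implied by the F statistic. The fits were tested on simulated data. DESeq2 1.42.0, upper-quartile scaling, no filter, an offset for average transcript length, 1 fit of 15 libraries, a replicate block and leaving out each library were alternatives.

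The members and lists were chosen with earlier results of these data known. Besides the 7 members, ETV6 and ERG, genes named are up to 4 per list with the smallest p with ETV6_WT and with sgERG, and the 3 most like each member at 5 CPM or more. TESK1 is named for its overlap, and some genes under the rule are not reported here.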

Additional observations from a re-analysis of the deposited data

How the results depend on the processing

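Of 547 alternative values for the single surface antigen genes, 529 kept their side of the threshold, 14 lost the call and 4 gained it. None with a call in either fit reversed its direction. Changes of sign between values without a call were not counted as reversals. The 547 include values of MS4A1 with ETV6_WT, whose libraries alone took that gene past the filter. With an offset for average transcript length, fewer genes passed: 2913 for ETV6_WT over tagBFP (5202 otherwise), 3427 for ETV6_R399C over tagBFP (5826 otherwise) and 1236 for ETV6_WT over ETV6_R399C (3044 otherwise). Under that offset 3 surface antigens other than MS4A1, in place of 4, were higher with ETV6_WT than with ETV6_R399C, and 0 in place of 1 were lower. CD38 (-0.28, edgeR adjusted p = 0.0914) and TNFRSF13C (0.34, edgeR adjusted p = 0.0676) lost their calls between the ETV6 forms. MS4A1 lost its call with ETV6_R399C over tagBFP (edgeR adjusted p = 0.0639), and the CD38 difference between experiments was 0.15 (edgeR adjusted p = 0.511). The cause was not tested. With DESeq2, TNFRSF13C was not called between the ETV6 forms (adjusted p = 0.0515), and MS4A1 with ETV6_R399C over tagBFP had no adjusted p. Without sgERG replicate 2, the MS4A1 difference between ETV6_R399C and sgERG passed (2.05, edgeR adjusted p = 0.0215).

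Leaving out 1 library at a time gave 2008 to 3110 genes for ETV6_WT over ETV6_R399C and 3 to 5 surface antigens higher, the lowest without ETV6_WT replicate 2. These counts of surface antigens include MS4A1, which the ETV6_WT libraries alone took past the filter. For sgERG over sgCtrl it gave 1160 to 2302 genes (1969 with all libraries), with 1160 without sgCtrl replicate 1 and 1162 without sgCtrl replicate 3. Same-numbered replicates did not deviate together, with correlations from -0.177 to 0.166. The fit with a replicate block called 5086, 5656, 2973 and 1536 genes for ETV6_WT over tagBFP, ETV6_R399C over tagBFP, ETV6_WT over ETV6_R399C and sgERG over sgCtrl, and changed no call of a surface antigen. MS4A1, at 3 to 29 reads per library in the ETV6 experiment, is the gene most limited by depth.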
